A study of Mus musculus with 12 samples.

Results

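Kruppel-like factors are zinc-finger transcription factors, and 10 of their genes were followed here: Klf2, Klf3, Klf4, Klf5, Klf6, Klf7, Klf9, Klf10, Klf13 and Klf15. The genes were chosen by their log2 signals in these same 12 arrays, by stage and region, so their levels and differences below are a description and carry no test. Each was read through every probe set assigned to it alone, which gave 34 probe sets for the 10 genes, out of 45101 probe sets and 18193 genes with such a probe set. All 10 genes, through 31 of the 34 probe sets, passed the filter on dim signals (in at least 1 group, each of its 2 arrays had to read above its own median), and 13031 genes in all passed it.

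The study profiled mouse kidney cortex and medulla as pieces of tissue, as renal progenitor cells isolated from each region and grown on fibroblast feeders, and as organoids that such cells formed in a 3D Matrigel matrix. Each of the 6 groups (region by stage) had 2 Affymetrix arrays of total RNA, 12 in all, which the labels call biological replicates. The labels give no strain, age, sex, drug or genotype for any group. They do not say whether replicates came from separate animals or separate clones, so an error below measures only the spread between these arrays, which may be technical. The progenitor arrays may also hold RNA of feeder cells, since the labels name no step that removed them. RNA came from whole samples, in which fewer cells of a type and less RNA per cell cannot be told apart.

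Kruppel-like factors bind GC-rich and CACCC-type elements through a block of zinc fingers at the carboxyl end that the family shares with the Sp factors. The rest of each protein differs and decides the partners: Klf2, Klf4, Klf5, Klf6 and Klf7 mainly activate through acetyltransferases, Klf3 represses through CtBP, and Klf9, Klf10 and Klf13 repress through the Sin3 complex. Klf15 was first cloned from kidney and is known for hormone-driven control of amino acid and glucose metabolism.

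The tissue arrays carried the segment markers of kidney. The 12 proximal tubule genes averaged 13.67 to 14.26 log2 signal on the 4 tissue arrays, medulla pieces included, against 4.15 to 5.28 on the progenitor and 4.82 to 6.02 on the organoid arrays. Epithelial markers averaged 13.57 to 13.79 on the progenitor and 12.15 to 12.42 on the organoid arrays. Most defining markers of the proximal tubule, among them Lrp2, Slc34a1 and Miox, were below the array median in both kinds of culture. The organoid arrays stood apart in their controls: the median of the poly-A labelling controls was 1.15 to 2.30 log2 signal there, 7.01 to 7.16 on progenitor and 7.69 to 8.23 on tissue arrays. The Gapdh 3′ probe set exceeded the 5′ one by 0.87 to 1.67 on organoid arrays and by -0.41 to 0.18 on the others. For Actb it was the tissue arrays that stood apart. Its 3′ to 5′ difference was 0.94 to 1.63 on tissue, 0.16 to 0.19 on progenitor and -0.00 to 0.15 on organoid arrays. The labels give no origin for these control differences. They cannot be told apart from the organoid stage in any comparison with organoids, nor, for Actb, from the tissue stage in any comparison with tissue.

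Promoter sequences, the 250 bases upstream of the annotated start in RefSeq's table for GRCm38.p6, were found for 8 of the 10 genes, not for Klf5 and Klf10. The 5 printed here belong to genes whose brightest probe set was higher (Klf4, Klf6) or lower (Klf2, Klf9, Klf15) in culture than in tissue. The letters can thus be read beside those values. Capitals mark GGGCGG (the GC box), the CACCC element and the E-box core CACGTG on either strand and, in Klf2, a MEF2 site, and runs of capitals can be overlapping or adjoining matches. Klf2 lies at chr8:72318812-72319061 (plus strand), Klf4 at chr4:55532476-55532725 (minus strand), Klf6 at chr13:5861239-5861488 (plus strand), Klf9 at chr19:23140976-23141225 (plus strand) and Klf15 at chr6:90462326-90462575 (plus strand, inside the annotated span of the gene, which has a further start upstream).
Klf2: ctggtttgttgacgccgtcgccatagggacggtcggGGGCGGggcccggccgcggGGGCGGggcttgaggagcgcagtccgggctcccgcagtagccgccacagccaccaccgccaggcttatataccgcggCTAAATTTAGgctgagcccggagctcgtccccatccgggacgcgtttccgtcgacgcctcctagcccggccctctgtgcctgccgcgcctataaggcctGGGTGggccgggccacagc
Klf4: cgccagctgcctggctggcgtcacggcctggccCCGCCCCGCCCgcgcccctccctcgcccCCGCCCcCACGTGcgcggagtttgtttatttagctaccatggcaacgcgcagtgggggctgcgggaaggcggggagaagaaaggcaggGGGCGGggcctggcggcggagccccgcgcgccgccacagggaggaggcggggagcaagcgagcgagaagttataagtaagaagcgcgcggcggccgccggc
Klf6: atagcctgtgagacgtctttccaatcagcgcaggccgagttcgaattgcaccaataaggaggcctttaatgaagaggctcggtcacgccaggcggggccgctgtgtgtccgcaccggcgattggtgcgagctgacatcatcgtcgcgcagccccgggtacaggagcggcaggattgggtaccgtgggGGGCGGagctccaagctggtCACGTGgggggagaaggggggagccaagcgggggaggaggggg
Klf9: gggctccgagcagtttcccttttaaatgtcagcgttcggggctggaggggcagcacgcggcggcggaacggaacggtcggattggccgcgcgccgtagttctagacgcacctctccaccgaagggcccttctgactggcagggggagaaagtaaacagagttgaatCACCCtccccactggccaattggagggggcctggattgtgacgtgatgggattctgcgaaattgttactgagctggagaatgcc
Klf15: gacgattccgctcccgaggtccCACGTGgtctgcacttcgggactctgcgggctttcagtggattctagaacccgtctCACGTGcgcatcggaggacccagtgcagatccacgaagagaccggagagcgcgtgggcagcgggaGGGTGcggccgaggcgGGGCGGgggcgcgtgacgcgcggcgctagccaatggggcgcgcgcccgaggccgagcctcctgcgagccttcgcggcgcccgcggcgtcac
GGGCGG, which Sp and Kruppel-like factors bind, was present in 7 of the 8 promoters and in 32.7% of 32851 mouse promoters of the same length. CACCC was present in 6 of the 8 against 52%, and CCAAT in 4 of the 8 against 33.8%. CACGTG was in 3 of the 8 (Klf4, Klf6 and, in 2 copies, Klf15) against 6.02%. The MEF2 site was in Klf2 alone of the 8, against 0.508% of all promoters. TATAAA had no match in the 8 windows, against 12.4% of all promoters. Neither the AP-1 element TGACTCA (4.46%), nor the cAMP-response element TGACGTCA (1.55%), nor the CArG box (1.47%) had a match. The 8 windows were 59.2% to 78.4% G or C, above the median of 52.4% over all promoters. A match describes letters and shows no binding.

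Among the activators, Klf2 is the flow-responsive factor of quiescent endothelium and of resting T cells. Its 1 probe set read 9.63 and 9.82 log2 signal in cortex tissue and 9.90 and 9.69 in medulla tissue, 6.70 and 6.55 in cortex-derived and 6.67 and 6.94 in medulla-derived progenitors, and 6.93 and 6.49 in cortex-derived and 7.47 and 6.83 in medulla-derived organoids. The 4 tissue arrays were high, and the 8 culture arrays were low with progenitors and organoids overlapping. The progenitor difference from tissue was -2.87 ± 0.19, 7.31-fold lower. All differences are on the scale of log2 of signal plus an offset of 15.2 units, with the standard error of the limma fit. Organoids differed from progenitors by 0.19 ± 0.19 and by -0.16 after quantile normalization, so no direction is given.

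Endothelial and leukocyte markers moved beside Klf2. All 12 endothelial genes fell from tissue to progenitors past an adjusted p of 0.05 (limma, Benjamini-Hochberg), beside 35.9% of all genes. Their median difference was -3.68 against 0.03 for all genes. Their mean log2 signal was 9.34 to 10.15 on tissue arrays, 4.71 to 5.64 on progenitor and 3.75 to 4.61 on organoid arrays, and Pecam1, Cdh5, Emcn, Plvap, Tie1 and Tek were below the array median in the 4 culture groups. Of the 12 leukocyte genes, 11 fell and 1 rose, beside 35.9% and 36.8% of all genes. Their mean was 8.88 to 9.52 on tissue and 4.61 to 5.50 on culture arrays. The part of these cells in the Klf2 difference was not tested.

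Klf4 promotes differentiation and restrains proliferation in barrier epithelia. In its brightest probe set it was higher at each step within each region and differed by region in culture. It read 8.80 and 8.93 in cortex tissue and 9.18 and 8.97 in medulla tissue, 10.82 and 10.89 in cortex-derived and 9.96 and 9.72 in medulla-derived progenitors, and 11.85 and 11.93 in cortex-derived and 10.55 and 10.72 in medulla-derived organoids. No 2 groups overlapped, the order from high to low being cortex organoids, cortex progenitors, medulla organoids, medulla progenitors, medulla tissue and cortex tissue. The progenitor level was 1.35 ± 0.10 above tissue, 2.55-fold, and the organoid level 2.26 ± 0.10 above tissue. Within regions the progenitor difference from tissue was 1.95 for cortex and 0.74 for medulla. The second probe set of Klf4, 1417395_at, was 0.68 ± 0.14 higher in progenitors than in tissue, with arrays overlapping. It read 8.58 and 8.47 in medulla-derived progenitors and 8.44 and 8.49 in medulla tissue.

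Klf5 is known from proliferating basal and crypt epithelium and from the collecting duct. By brightest probe set it had the largest excess over tissue in progenitors among the 10 genes. Its brightest probe set read 6.06 and 5.91 in cortex tissue, 9.03 and 8.31 in medulla tissue, 11.86 and 11.74 in cortex-derived and 11.63 and 11.75 in medulla-derived progenitors, and 10.93 and 10.56 in cortex-derived and 10.56 and 10.92 in medulla-derived organoids. Both kinds of culture lay above both kinds of tissue, and organoids lay below progenitors without overlap. Progenitors were 4.24 ± 0.16 above tissue, 18.9-fold, and the organoid difference from progenitors was -1.0 ± 0.16. Over the mean of its probe sets the second difference turned to 0.40, and the first stayed at 1.91. The progenitor difference from tissue was 1.09 ± 0.23 in 1451739_at and, with arrays overlapping, 0.40 ± 0.29 in 1430255_at.

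Klf6 is an early gene of injury and growth stimulation in epithelium and other tissues. It read 9.99 and 9.96 in cortex tissue and 10.66 and 9.71 in medulla tissue, 13.49 and 13.49 in cortex-derived and 13.39 and 13.15 in medulla-derived progenitors, and 12.85 and 12.82 in cortex-derived and 13.24 and 13.21 in medulla-derived organoids. The tissue arrays were low and the 8 culture arrays high, with progenitors and organoids overlapping. Progenitors were 3.28 ± 0.16 above tissue, 9.73-fold, and its 5 probe sets gave differences between 2.58 and 4.27. The organoid difference of Klf6 from progenitors was -0.35 ± 0.16, short of the threshold. It passed with the replicate block, with only the groups compared and without either of the medulla tissue arrays (-0.35), with 75th percentile scaling (-0.49) and over the mean of the probe sets (-0.59), and was 0.03 after quantile normalization.

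Klf7, best known from axon growth and as a repressor of fat cell formation, read 8.18 and 9.11 in cortex tissue and 8.97 and 9.17 in medulla tissue, 9.66 and 9.91 in cortex-derived and 9.82 and 9.62 in medulla-derived progenitors, and 11.01 and 11.05 in cortex-derived and 10.19 and 10.83 in medulla-derived organoids. The 3 stages did not overlap and stepped up from tissue to progenitors to organoids. The steps were 0.87 ± 0.19 and 1.01 ± 0.19, and they share the progenitor arrays.

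Klf3, the CtBP-dependent repressor, read 11.11 and 10.92 in cortex tissue and 11.23 and 10.81 in medulla tissue, 12.47 and 12.36 in cortex-derived and 12.14 and 12.11 in medulla-derived progenitors, and 10.64 and 10.81 in cortex-derived and 10.21 and 10.76 in medulla-derived organoids. The progenitor arrays were the highest and did not overlap with the other stages, whereas organoids and tissue met at 10.81. Progenitors were 1.24 ± 0.13 above tissue and the organoid difference from progenitors was -1.66 ± 0.13. The organoid difference from tissue was -0.41 ± 0.13, was no longer past the threshold without medulla tissue replicate 1 (-0.31), and turned to 1.40 over the mean of the probe sets. The other 5 probe sets of Klf3 above the filter were higher in organoids than in tissue without overlap, by 1.27 to 4.48. The organoid difference of Klf3 from progenitors likewise turned to 0.30 over the mean of the probe sets.

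Of the Sin3-dependent repressors, Klf9 is a hormone-induced and rhythmic gene that restrains proliferation. It read 14.31 and 14.45 in cortex tissue and 14.37 and 14.67 in medulla tissue, 12.12 and 12.15 in cortex-derived and 12.05 and 12.03 in medulla-derived progenitors, and 12.95 and 12.68 in cortex-derived and 12.91 and 12.85 in medulla-derived organoids. Tissue was highest, organoids were intermediate and progenitors lowest, with no overlap between stages. The progenitor difference from tissue was -2.36 ± 0.09, 5.13-fold lower, and organoids stood 0.76 ± 0.09 above progenitors, a value that turned to -0.40 over the mean of the probe sets.

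Klf10, the TGF-beta inducible early gene, read 9.27 and 9.35 in cortex tissue and 9.38 and 9.05 in medulla tissue, 10.07 and 10.10 in cortex-derived and 10.06 and 10.10 in medulla-derived progenitors, and 10.04 and 10.14 in cortex-derived and 10.40 and 10.26 in medulla-derived organoids. The tissue arrays were below the 8 culture arrays, and progenitors and organoids overlapped. The progenitor excess was 0.80 ± 0.11 and the organoid excess 0.93 ± 0.11, both over the same tissue arrays.

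Klf13, a regulator of chemokine transcription in T cells, varied least. It read 9.70 and 10.07 in cortex tissue and 10.12 and 10.31 in medulla tissue, 9.65 and 9.57 in cortex-derived and 9.61 and 9.77 in medulla-derived progenitors, and 9.75 and 9.29 in cortex-derived and 9.37 and 9.63 in medulla-derived organoids. Tissue overlapped with both cultures through cortex tissue replicate 1. The differences from tissue were -0.40 ± 0.14 for progenitors and -0.53 ± 0.14 for organoids, and 0.07 and 0.09 over the mean of its probe sets. That mean takes in 1456030_at, which did not pass the filter and gave 0.71 and 1.58. The other probe set above the filter, 1432543_a_at, gave -0.09 ± 0.17 and -0.79 ± 0.17, with arrays overlapping. The progenitor value of Klf13 also left the threshold without cortex tissue replicate 2 (-0.31), medulla tissue replicate 2 (-0.35), cortex progenitor replicate 2 (-0.38) or medulla progenitor replicate 1 (-0.36).

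Klf15, the glucocorticoid-responsive factor of metabolism, had the widest range. Its 1 probe set read 11.0 and 10.79 in cortex tissue and 10.48 and 10.63 in medulla tissue, 2.47 and 2.97 in cortex-derived and 3.83 and 3.43 in medulla-derived progenitors, and 6.56 and 3.10 in cortex-derived and 7.47 and 7.10 in medulla-derived organoids. Tissue was far above both cultures, and organoids lay above progenitors except for cortex organoid replicate 2. All 4 progenitor arrays and cortex organoid replicate 2 read Klf15 below the 25th percentile of their own array (3.59 to 4.34 log2 signal), so their readings give no measured level and no fold is given. On the offset scale the progenitor difference from tissue was -6.12 ± 0.37, and with an offset of 1 unit it was -7.39. The fitted organoid difference from progenitors, 1.93 ± 0.37, rests on the same dim readings and on the offset, and the organoid difference from tissue was -4.19 ± 0.37.

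**Figure D1:**
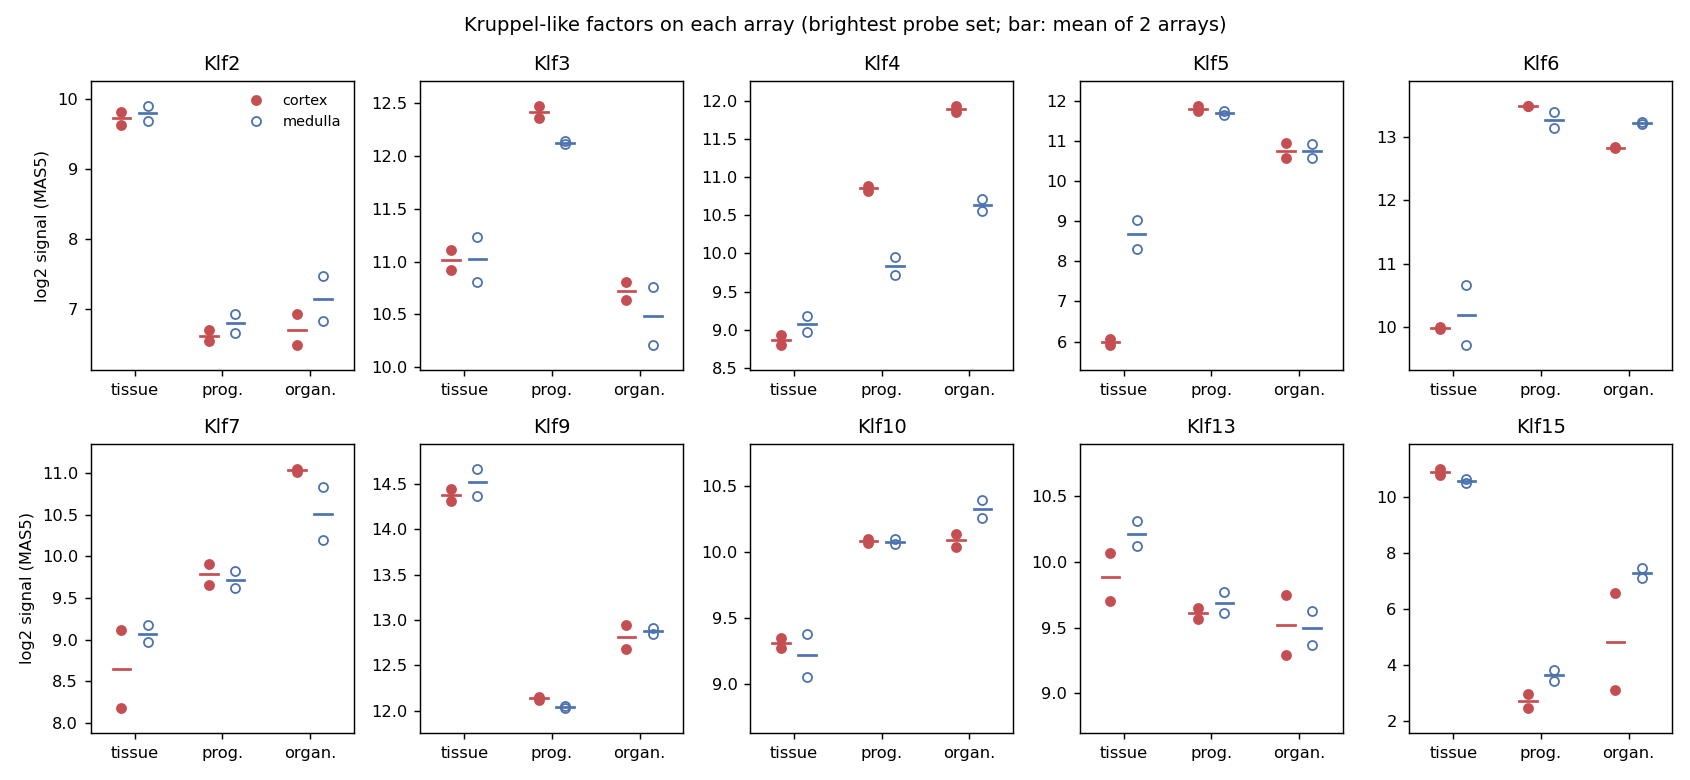
Log2 MAS5 signal (vertical axis, own range in each panel) of the brightest probe set of each gene on the 12 arrays, by stage (prog., progenitor cells; organ., organoids), with filled red points for cortex, open blue points for medulla and a bar at the mean of 2 arrays. Klf2, Klf9 and Klf15 are highest in tissue, Klf4 to Klf7 are higher in culture, and 1 cortex organoid array of Klf15 is at 3.10 beside another at 6.56.

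Past an adjusted p of 0.05 (limma, Benjamini-Hochberg over all 13031 genes), 6 of the 10 genes were higher in progenitors than in tissue (Klf3, Klf4, Klf5, Klf6, Klf7 and Klf10) and 4 were lower (Klf2, Klf9, Klf13 and Klf15). Of all genes tested, 36.8% were higher and 35.9% lower by that rule. From progenitors to organoids 4 were higher (Klf4, Klf7, Klf9 and Klf15) and 2 lower (Klf3 and Klf5), beside 28.1% and 44.3% of all genes. From tissue to organoids 5 were higher (Klf4, Klf5, Klf6, Klf7 and Klf10) and 5 lower (Klf2, Klf3, Klf9, Klf13 and Klf15), beside 33.1% and 46.6%. Of the probe sets of Klf3 above the filter, only the brightest was lower. Nothing is read from these counts, because the genes were listed with these differences known and most genes moved between stages. The median difference of the 10 genes was 0.84, 0.16 and 0.26 in the 3 comparisons, and that of all genes 0.03, -0.29 and -0.29. The progenitor difference from tissue had the same sign in cortex and in medulla for each of the 10 genes, Klf5 being 5.51 in cortex against 2.97 in medulla.

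**Figure D2:**
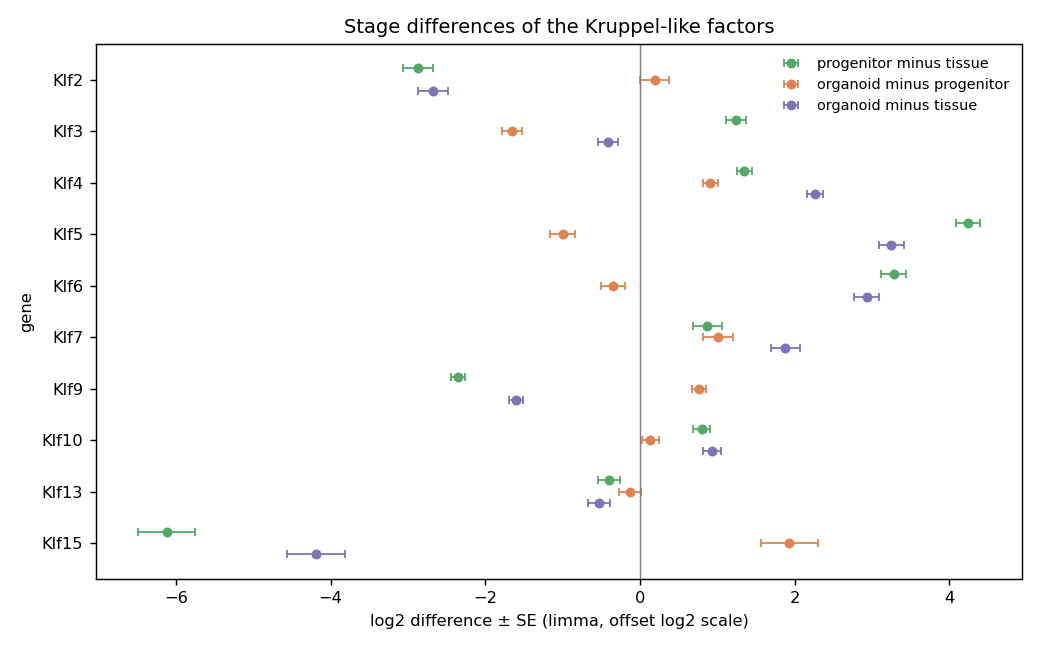
Log2 differences with standard errors (horizontal axis, limma on 4 arrays a stage, offset log2 scale) of the brightest probe set of the 10 genes for progenitor minus tissue, organoid minus progenitor and organoid minus tissue. Klf15, whose progenitor readings are below the 25th percentile of their arrays, is at -6.12 and Klf5 at 4.24 for progenitor minus tissue.

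Probe sets of 1 gene can read different parts of its transcripts, and those of several Kruppel-like factors parted in the step to organoids. Of the 31 probe sets above the filter, 18 were higher on every progenitor array than on any tissue array and 7 lower, beside 38.8% and 30.4% of all such probe sets. Between organoids and progenitors 11 were higher and 8 lower, beside 29.1% and 32.1%, and between organoids and tissue 18 were higher and 7 lower, beside 34.4% and 32.3%. Of the 7 genes with several probe sets above the filter, none had probe sets that differed without overlap in opposite directions between progenitors and tissue (9.32% of 6363 such genes did, and 19.9% of those with 4 or more probe sets) or between organoids and tissue (19.6% and 39.9%). Between organoids and progenitors 5 of the 7 did (Klf3, Klf5, Klf6, Klf7 and Klf9), beside 23.9% of such genes. Among genes with 4 or more probe sets it was 4 of 4 beside 48.3%. Klf3 came near such a split between organoids and tissue. There 5 of its probe sets were higher without overlap, and the brightest, at -0.41 ± 0.13, overlapped only where the stages met at 10.81.

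The widest split among the 5 genes was that of Klf9, whose 6 probe sets above the filter ran from -3.26 ± 0.23 (1436952_at) to 1.26 ± 0.17 (1422264_s_at), 3 of them higher and 3 lower in organoids without overlap. Klf6 parted between a pair of bright probe sets, and its other 3 overlapped. Its probe set 1427742_a_at read 13.36 and 13.35 in cortex-derived and 13.09 and 13.26 in medulla-derived progenitors, and 9.98 and 10.19 in cortex-derived and 10.40 and 10.81 in medulla-derived organoids, a difference of -2.91 ± 0.15. Its probe set 1418280_at read 12.25, 12.16, 12.03 and 12.01 in those progenitors and 13.33, 13.17, 13.26 and 13.38 in those organoids, a difference of 1.17 ± 0.15. Progenitors and organoids were apart in both probe sets and in opposite order.

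In Klf3 the probe set 1421604_a_at was 2.23 ± 0.15 higher in organoids than in progenitors, while the brightest, 1454666_at, gave -1.66 ± 0.13. In Klf5 the dim probe set 1430255_at was 2.87 ± 0.29 higher and the brightest, 1451021_a_at, gave -1.0 ± 0.16. In Klf7 the difference was 1.07 ± 0.17 for 1419355_at and -0.70 ± 0.15 for 1419356_at. The direction of these 5 genes from progenitors to organoids therefore depended on the probe set. The Gapdh 3′ to 5′ and poly-A control differences of the organoid arrays given above moved with it. That of Actb was -0.00 to 0.15 on organoid and 0.16 to 0.19 on progenitor arrays. The part of these controls was not tested.

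**Figure D3:**
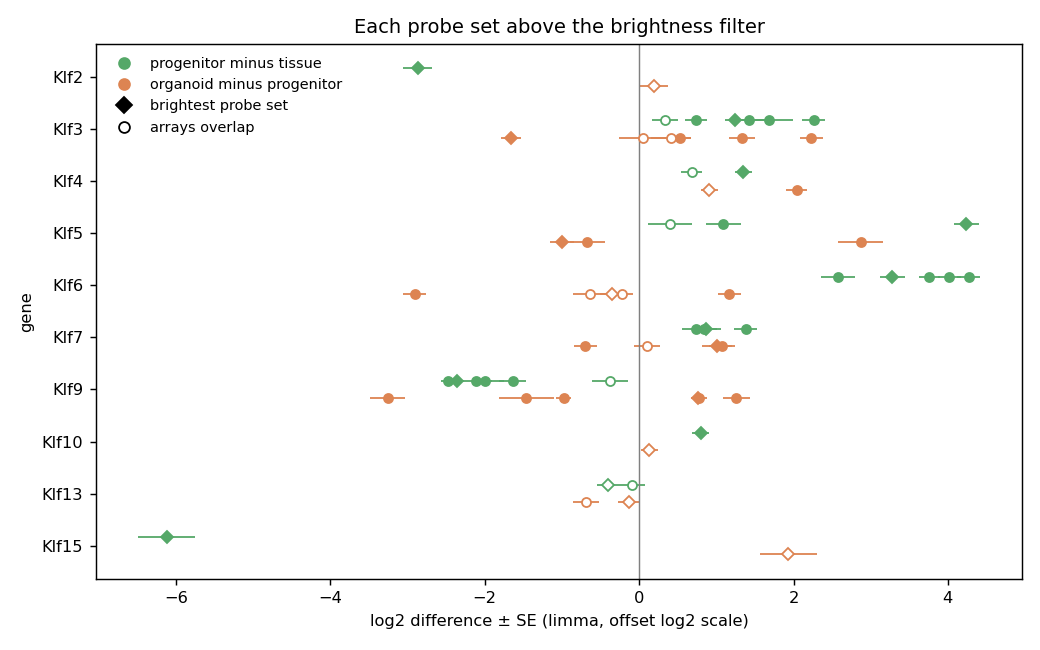
Log2 differences with standard errors (horizontal axis) of each of the 31 probe sets above the filter, for progenitor minus tissue (green) and organoid minus progenitor (orange), with diamonds for the brightest probe set and open symbols where arrays of the stages overlap. Within a gene the green symbols lie on 1 side of 0, and the orange ones of Klf3, Klf5, Klf6, Klf7 and Klf9 lie on both sides, from -2.91 to 1.17 for Klf6.

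Between medulla and cortex, 1 of the 10 genes passed the threshold in tissue (Klf5, higher in medulla), beside 0.33% of all genes in that direction. In progenitors 1 passed (Klf4, lower), beside 0.0384%. In organoids 1 was lower (Klf4), beside 10%, and 1 higher (Klf15), beside 7.93%. The list was made with these differences known, and nothing is read from the counts. Klf5 was 2.43 ± 0.22 higher in medulla tissue, 5.39-fold, with the 2 arrays of each region apart as given above and both cortex arrays below their array median. Its other probe sets, 1451739_at and 1430255_at, differed by -0.04 ± 0.33 and -0.42 ± 0.42 with arrays overlapping, and over the mean of the 3 the Klf5 difference was 0.66 and not past the threshold. In progenitors and organoids the Klf5 difference was -0.11 ± 0.22 and -0.01 ± 0.22.

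Klf4 was lower in medulla-derived than in cortex-derived cultures, by a difference of -1.0 ± 0.15 in progenitors and -1.25 ± 0.15 in organoids, 2.01-fold and 2.37-fold. Its second probe set, 1417395_at, gave -1.15 ± 0.19 and -1.22 ± 0.19, with arrays of 9.79 and 9.63 against 8.58 and 8.47 in progenitors and of 11.92 and 11.67 against 10.32 and 10.82 in organoids. The regions did not overlap in either culture for either probe set, whereas the tissue difference of Klf4 was 0.20 ± 0.15 and 0.09 ± 0.19. With 2 arrays a group the progenitor call rested on each array. It was lost without cortex progenitor replicate 1 or 2 (-1.04 and -0.97) and without medulla progenitor replicate 1 or 2 (-1.12 and -0.89), Klf4 keeping its direction.

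Klf15 was 1.75 ± 0.53 higher in medulla-derived than in cortex-derived organoids, and without cortex organoid replicate 2 the Klf15 value was 0.64 and no longer past the threshold. That array read Klf15 below its 25th percentile, so the size of the difference depends on the offset. The call was also lost without medulla organoid replicate 1 (1.58), without any 1 of the 8 tissue and progenitor arrays (1.75), after quantile normalization (1.48) and with an offset of 1 (2.38). Klf6 differed between regions by -0.22 ± 0.22 in progenitors and by 0.39 ± 0.22 in organoids, both short of the threshold. The organoid value of Klf6 passed it without either of the medulla tissue arrays (0.39), and the tissue value, 0.21 ± 0.22, did so without medulla tissue replicate 2 (0.67). Klf3 and Klf7 differed between the regions' organoids by -0.24 ± 0.19 and -0.52 ± 0.27, and passed the threshold without medulla organoid replicate 2, Klf3 at -0.51 and Klf7 at -0.83. Klf2, Klf9, Klf10 and Klf13 differed between regions by -0.10 to 0.39 in the 3 stages.

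Fibroblast and feeder genes moved with the organoid regions. Of 14 such genes, 11 rose in medulla-derived against cortex-derived organoids (limma, Benjamini-Hochberg), beside 7.93% of all genes. The median of the 14 was 2.03 against -0.00 for all genes. Col6a3 rose by 3.33 ± 0.46 and Dcn by 3.13 ± 0.32. Both cortex-derived organoid arrays read Col6a3 below their own median, so its size depends on the offset. The mean of the 14 genes was 5.06 to 6.06 log2 signal on cortex-derived and 7.90 to 8.0 on medulla-derived organoid arrays. On progenitor arrays it was 8.56 to 8.63 against 8.96 to 9.02. Their part in the Klf4, Klf6 and Klf15 differences was not tested.

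**Figure D4:**
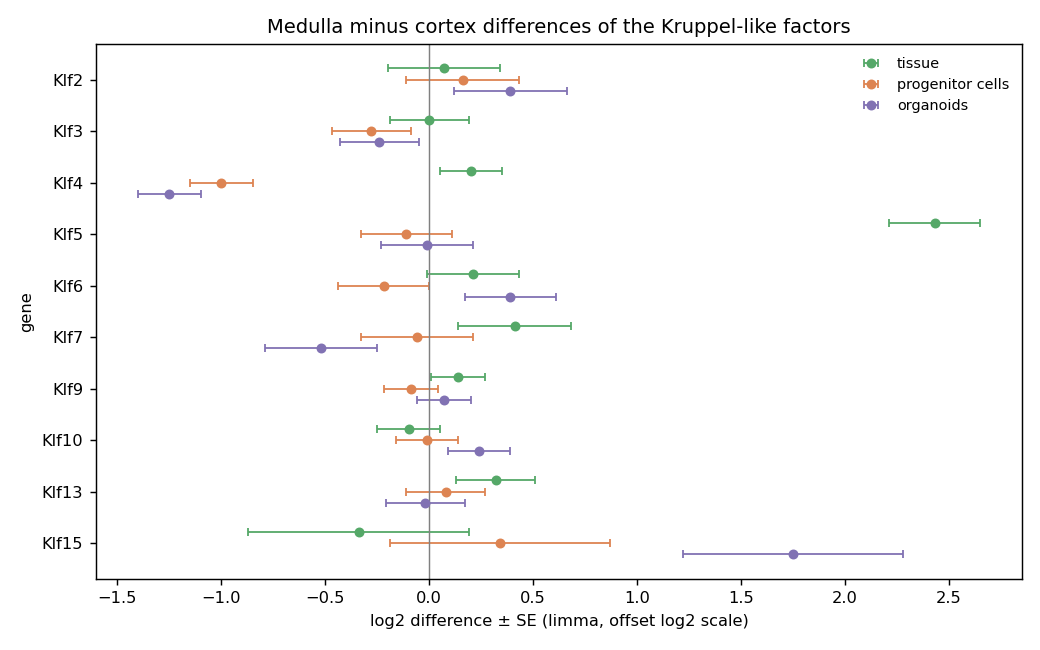
Medulla minus cortex log2 differences with standard errors (horizontal axis, 2 arrays a region) of the brightest probe set of the 10 genes in tissue, progenitor cells and organoids. Klf5 stands at 2.43 in tissue, Klf4 at -1.0 and -1.25 in the cultures and Klf15 at 1.75 in organoids.

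The rest of the family was measured beside the 10 genes. Of 16 other Klf and Sp genes listed, 13 had a probe set of their own and 10 passed the filter. From tissue to progenitors 3 rose, 4 fell and 3 did not pass (median -0.59). Klf1, the erythroid activator, fell by 2.53 ± 0.41, Klf12, a CtBP-dependent repressor like Klf3, fell by 2.51 ± 0.24, Sp6 rose by 1.81 ± 0.28 and Klf16, a Sin3-dependent repressor, by 1.22 ± 0.18. From progenitors to organoids 1 rose and 6 fell, with Sp3 at -2.31 ± 0.19, Klf16 at -2.18 ± 0.18 and, as the rise, Sp4 at 1.27 ± 0.29. All genes tested rose in 36.8% and fell in 35.9% of cases in the first step, and in 28.1% and 44.3% in the second. Sp1 and Klf12 depended on the probe set in the step to organoids. The brightest of Sp1, the general GC-box activator, differed by -1.0 ± 0.14, a second, 1448994_at, by 3.74 ± 0.20 (6.67 to 7.06 log2 signal in progenitors and 10.07 to 11.31 in organoids) and another, 1418180_at, by -0.37 ± 0.17 with arrays overlapping. No direction is therefore given for Sp1. For Klf12 the difference was -2.28 ± 0.24 in the brightest probe set, 0.08 ± 0.27 in 1439846_at and -0.95 ± 0.27 in 1455521_at, the last with arrays overlapping. From tissue to progenitors the 3 probe sets of Klf12 were lower without overlap, at -2.51, -1.80 and -3.26, whereas those of Sp1 overlapped, at -0.14, 0.30 and 0.19. Klf12 was past the threshold between the regions' organoids, but its 4 organoid arrays read it below their array median, and no regional direction is given.

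**Figure D5:**
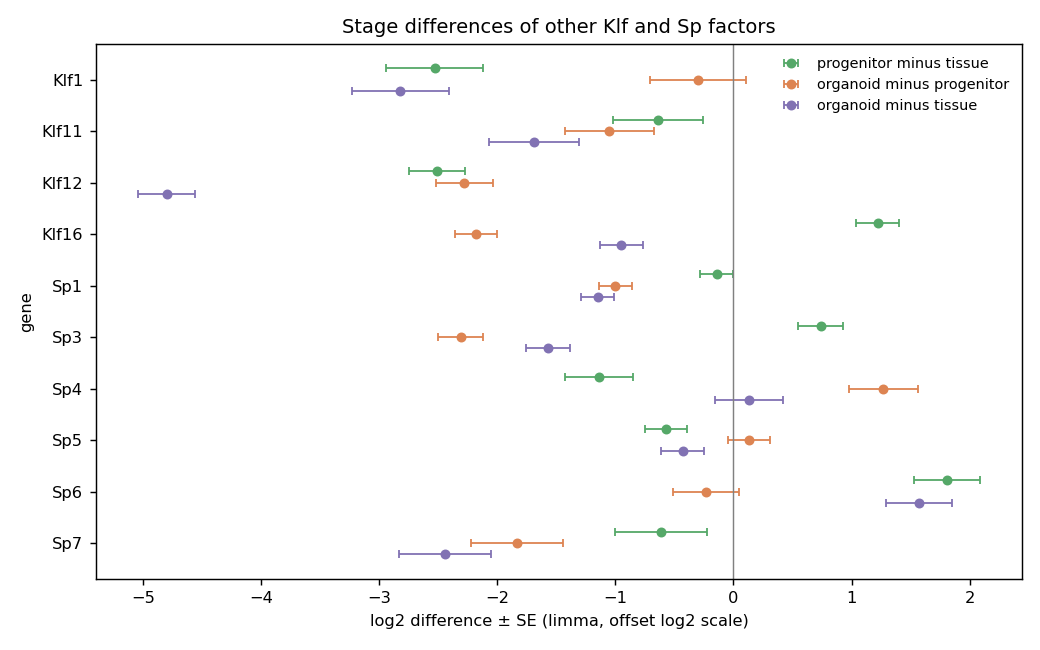
Log2 differences with standard errors (horizontal axis, 4 arrays a stage, offset log2 scale) of 10 other Klf and Sp genes that passed the filter, for the 3 stage comparisons. Each gene is shown by its brightest probe set, and for organoid minus progenitor other probe sets of Sp1 and Klf12 gave other values. Klf12 lies at -2.51 and Sp6 at 1.81 for progenitor minus tissue.

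In the gene lists below each gene is read by its brightest probe set alone. Other probe sets of a gene can go the other way in the step to organoids, as in several Kruppel-like factors above. Genes that Klf4 and Klf5 are known to regulate in epithelia were followed beside them. All 18 measured rose from tissue to progenitors (limma, Benjamini-Hochberg, with a median of 2.51 against 0.03 for all genes), among them the keratins Krt19 (6.67 ± 0.24) and Krt18 (4.98 ± 0.11), the cell-cycle inhibitor Cdkn1a (4.70 ± 0.18) and the tight-junction gene Cldn4 (4.29 ± 0.16). Of all genes tested, 36.8% rose in that step. The step from progenitors to organoids had 3 that rose and 15 that fell (median -1.34), beside 28.1% and 44.3% of all genes. Cldn4 was at -3.17 ± 0.16 there. Markers of epithelium moved alike, 7 of 7 rising in the first step (median 2.60) and 6 of 7 falling in the second (median -1.58), and Cdh1, Cldn4, Cldn7, Krt8 and Krt18 belong to both lists. Of 9 markers of proliferating cells 8 rose from tissue to progenitors (median 4.85), and all 9 fell from progenitors to organoids (median -2.18). The same shares of all genes apply to both kinds of marker. The mean of the 9 was 6.53 to 6.89 log2 signal on tissue, 11.36 to 11.45 on progenitor and 8.93 to 9.19 on organoid arrays. The part of more epithelial or dividing cells in these genes, and in Klf4 and Klf5, was not tested. In tissue Krt19 (2.58 ± 0.34), Krt18 (1.25 ± 0.16) and Ehf (1.20 ± 0.20) rose in medulla against cortex, where Klf5 was higher, and the other 15 did not pass. Of all genes, 0.33% rose there. None of the 18 passed between the regions' progenitors. Between the regions' organoids 1 fell, Krt7 with -0.47 ± 0.13, beside 10% of all genes. Klf4 was lower there too, and with that share nothing is read from the fall of Krt7.

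Of 16 measured genes of amino acid catabolism and gluconeogenesis that Klf15 is known to regulate, 15 fell from tissue to progenitors and none rose (median -3.00). Of all genes tested, 35.9% fell and 36.8% rose in that step. Pck1, which starts gluconeogenesis, fell by 10.26 ± 0.19. The differences of Aass of lysine breakdown, Hpd of tyrosine breakdown and Prodh2 of hydroxyproline breakdown were -8.55 ± 0.25, -8.42 ± 0.21 and -5.60 ± 0.24. All 4 genes read below the array median on every progenitor array, so the sizes depend on the offset. In organoids against progenitors 4 rose and 8 fell (28.1% and 44.3% of all genes did), with Pck1 at 1.42 ± 0.19 and Hpd at -1.33 ± 0.21 between means of 1.57 and 4.97 and of 4.95 and 1.57 log2 signal, mostly below the array median on both sides. In that step 4 of 8 loop of Henle and distal tubule markers rose and 3 fell (median 1.68), and 6 of 11 collecting duct markers rose and 1 fell (median 1.04). Of 12 proximal tubule markers, 4 rose and 4 fell (median 0.23). Several of the 16 genes above are proximal tubule genes. All 12 proximal tubule markers fell from tissue to progenitors, beside 35.9% of all genes, with a median difference of -8.79. The part of these cells was not tested in either step.

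Circadian clock and output genes are a programme that includes Klf9, Klf10 and Klf15 as rhythmic outputs. From tissue to progenitors 12 of 18 fell and 3 rose (median -1.49), beside 35.9% and 36.8% of all genes. Among those that fell, the differences were -5.62 ± 0.13 for Dbp, -5.45 ± 0.17 for Usp2, -4.57 ± 0.30 for Hlf and -4.13 ± 0.18 for Tef. The step to organoids raised 8 and lowered 4 (median 0.36), beside 28.1% and 44.3% of all genes, with Npas2 at 2.32 ± 0.40 and Per2 at 1.85 ± 0.22. Of 14 glucocorticoid response genes, 5 rose and 7 fell from tissue to progenitors (median -0.37), with Sesn1 at -2.25 ± 0.24 and Ddit4 at 2.30 ± 0.09. With 36.8% of all genes rising and 35.9% falling in that step, the glucocorticoid counts are near the share of all genes.

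Immediate early genes, the class to which Klf6 and Klf10 belong by their induction, rose in 19 of 19 cases from tissue to progenitors (median 3.30). Of all genes tested, 36.8% did so. Dusp5 rose by 6.19 ± 0.16, Fos by 5.93 ± 0.18 and Maff by 5.20 ± 0.43. Against progenitors, organoids had 6 risen and 9 fallen, near the shares of all genes in that step (28.1% and 44.3%). Egr2 was at 3.74 ± 0.21 and Junb at -4.37 ± 0.16. Of 11 TGF-beta early genes, 5 rose and 2 fell from tissue to progenitors (median 0.41; 36.8% and 35.9% of all genes), with Tgif1 up by 4.39 ± 0.14 and Ccn2 by 2.71 ± 0.17. Of 11 endothelial genes under Klf2 and Klf4, 3 rose and 6 fell (median -1.68), with the angiopoietin receptor gene Tek at -5.21 ± 0.28 and Edn1, which Klf2 is known to repress, at 3.76 ± 0.12. Leaving out either of the medulla organoid arrays made it 5 that rose.

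Among regulators of the family, 8 of 19 rose and 5 fell from tissue to progenitors (median 0.13), beside 36.8% and 35.9% of all genes. Mef2c, an activator of Klf2, fell by 4.07 ± 0.24, the mineralocorticoid receptor gene Nr3c2 fell by 2.43 ± 0.25, and Tgfbr2 rose by 2.13 ± 0.11. Leaving out either of the medulla organoid arrays made it 8 that fell. In organoids against progenitors 5 rose and 9 fell, beside 28.1% and 44.3% of all genes, Wwp1, a ubiquitin ligase of Klf2 and Klf5, rising by 1.87 ± 0.08. Of 13 corepressor and coactivator genes, 7 rose and 3 fell from tissue to progenitors, where the same shares of all genes apply. Hdac1 rose by 1.49 ± 0.08 and Ctbp2, the partner of Klf3, by 0.97 ± 0.13, and Ep300 fell by 0.96 ± 0.13. From progenitors to organoids 3 rose and 9 fell, with Ctbp2 at -1.84 ± 0.13 and the Sin3 complex gene Sap30 at -1.83 ± 0.09.

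Over the 12 arrays, the gene outside the list most like each Kruppel-like factor was found by Pearson's r of log2 signal, which mostly follows the 3 stages that the arrays share. Klf2 was closest to Rhcg (0.998), followed by C1qa and Defb11. Klf9 was closest to Fam107a (0.992), then Slc23a1 and the clock output gene Dbp, and Klf15 to Calb1 (0.986), then Osbpl2 and Tpp1. Klf5 was closest to the early gene Egr1 (0.985), then Map1b and Slc2a1, and Klf6 to Bcl3 (0.995), then Gcnt3 and Sema3c. Klf4 was closest to Six4 (0.970), Nr2f1 and Sdad1, Klf3 to Papola (0.984), Agfg1 and Rpa3, Klf7 to Khsrp (0.983), Ddx42 and Rhbdd1, and Klf10 to Car13 (0.984), Rnf4 and Chst14. Klf13, which varied least, had the lowest such value, 0.922 with Rbfa, followed by Ifi213 and Fam219a.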

How the data were processed

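The authors deposited 1 table of log2 signal per probe set for 12 arrays, which the submitters' processing notes call MAS5, with the version not given in the sources used here. In the deposited log2 values each array has a trimmed mean signal of 500 (2% trimmed at each end). The 64 control probe sets were left out of the tests. Of 45101 probe sets, 34958 had 1 gene symbol, 932 several and 9211 none, and 34754 matched a current gene. The brightest probe set stood for each gene. An offset of 15.2 signal units (the 25th percentile) was added before log2 was taken again, which lowers the differences of dim genes. A gene was tested where, in at least 1 group, each array read it above its own median. The 13031 such genes were fitted with limma 3.58.1 in R 4.3.3 (6 group means, 6 residual degrees of freedom, variance trend, moderated by a prior of 5.66 degrees), adjusted by the Benjamini-Hochberg method, threshold 0.05. The fit was tested on simulated data. Array precision is limited by their number, 2 a group.

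The members and gene lists were chosen with earlier results of these data known. Named genes were the 10 members with all their probe sets, the 3 genes most like each, up to 4 genes past the threshold with the largest differences from each list and comparison, any other Klf or Sp gene, and any cell type marker. Alternatives were quantile normalization, 75th percentile scaling, other offsets and filters, the mean of all probe sets, each probe set by itself, only the groups compared, no variance trend, a replicate block and leaving out each array.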

Additional observations from a re-analysis of the deposited data

Results flagged for a closer look

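In the brightest probe set of 3 genes every array of 1 region lay above the other region at 1 stage and below it at another. The share of all genes that did so was not counted, so nothing is read from this number. For Klf4 the medulla minus cortex difference was 0.20 ± 0.15 in tissue, -1.0 in progenitor cells and -1.25 in organoids. Its second probe set overlapped in tissue, at 0.09 ± 0.19. For Klf6 it was -0.22 ± 0.22 in progenitor cells and 0.39 ± 0.22 in organoids, both short of the threshold. For Klf15 it was -0.34 in tissue, 0.34 in progenitor cells and 1.75 in organoids, but its 4 progenitor arrays and 1 of its cortex organoid arrays read below the 25th percentile of their own array, so no direction is given for Klf15 in progenitor cells. The differences between stages were not tested. With 2 arrays a group, no array could be checked against its own group as an outlier.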

How the results depend on the processing

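With 2 arrays a group, the region comparisons depended most on the processing. In tissue 44 genes passed between regions, and 29 with a filter on all arrays of a stage, 24 over the mean of all probe sets, 1 with only the groups compared and 21 without a variance trend. Of the 10 Kruppel-like factors, 1 passed there, and 0 over the mean of all probe sets or with only the groups compared. In progenitors 41 genes passed, 63 with an offset of the median signal and 145 with only the groups compared. In organoids 2338 passed and 240 with only the groups compared, and the 2 Kruppel-like factors became 1 with quantile normalization, an offset of 1, no filter, only the groups compared or no trend. Leaving out 1 array at a time gave 14 to 240 genes and 1 to 2 factors in tissue, 13 to 109 and 0 to 1 in progenitors, and 1061 to 4383 and 1 to 4 in organoids. For stages it gave 8810 to 10243 genes and 9 to 10 factors (progenitor against tissue), 8801 to 10031 and 6 to 7 (organoid against progenitor), and 9961 to 10817 and 9 to 10 (organoid against tissue). The lowest tissue count came without cortex tissue replicate 1 and the highest without medulla tissue replicate 2. The lowest organoid count came without cortex organoid replicate 2 and the highest without medulla organoid replicate 2.

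The main fit did not pair the arrays by replicate number, and the labels do not say whether they were paired. Correlations of same-numbered deviations ran from -0.138 to 0.057, with -0.138 between the tissue regions and -0.111 between the progenitor regions. With 2 arrays a group such values cannot show that pairing was absent. With a replicate block 9414, 9382 and 10344 genes passed between stages and 34, 39 and 2133 between regions. With the numbers of the medulla tissue and medulla progenitor arrays crossed, an alternative chosen after seeing the data, these were 9501, 9480, 10396, 51, 47 and 2340.

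Several differences changed sign. Over the mean of all probe sets, organoid against progenitor became 0.30 in Klf3 (from -1.66), 0.40 in Klf5 (from -1.0) and -0.40 in Klf9 (from 0.76), 3 of the 6 factors past the threshold in that comparison, and 0.01 in Klf13. Organoid against tissue became 1.40 in Klf3 and 0.09 in Klf13, and progenitor against tissue 0.07 in Klf13, in that setting. Between regions the values over that mean became -0.16 in tissue and 0.02 in organoids for Klf3, -0.09 and -0.11 for Klf9, and -0.18 in progenitors for Klf13. That mean also takes in probe sets of Klf3, Klf9 and Klf13 that did not pass the filter. Quantile normalization gave -0.16 for Klf2 and 0.03 for Klf6 (organoid against progenitor), -0.02 for Klf3 between tissue regions and 0.03 for Klf5 between organoid regions. With 75th percentile scaling Klf10 was -0.01 (organoid against progenitor) and Klf3 -0.04 between tissue regions. Leaving out 1 array at a time gave region differences on both sides of 0: in tissue -0.03 to 0.17 in Klf2, -0.21 to 0.21 in Klf3, -0.26 to 0.67 in Klf6, -0.04 to 0.86 in Klf7, -0.01 to 0.30 in Klf9 and -0.26 to 0.06 in Klf10, in progenitors -0.19 to 0.06 in Klf7 and -0.03 to 0.01 in Klf10, and in organoids -0.51 to 0.04 in Klf3, -0.19 to 0.18 in Klf5, -0.06 to 0.21 in Klf9 and -0.25 to 0.20 in Klf13. The cause was not tested.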
